A study of Mus musculus with 20 samples.

Results

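The 9 genes described here (P2ry12, P2ry13, Gpr34, Cx3cr1, Csf1r, Tmem119, Siglech, Olfml3 and Sall1) are markers of homeostatic microglia, the resting state of the resident macrophages of the brain. They were taken by symbol, matched to Ensembl identifiers, and followed in all 20 libraries; all 9 were found among the 46078 genes of the count tables, and all 9 passed the filter on low counts in each comparison. The RNA came from tissue bordering the infarct (peri-infarct) and from the matching region of the opposite hemisphere (contralateral) of aged wild-type C57BL/6J male mice (18 months old) at 7 weeks after DH stroke, a model in which distal occlusion of the middle cerebral artery is followed by hypoxia. From 1 week after stroke, mice were injected subcutaneously with PBS (vehicle) or with 4 g/kg hydroxypropyl-β-cyclodextrin (HPBCD), a sugar ring that carries cholesterol, 3 times per week for 6 weeks. Each of the 4 groups of region and treatment held 5 libraries, and the 5 animals of a treatment gave a library from each hemisphere. All animals had a stroke, so the contralateral tissue is not tissue of an uninjured brain, and the infarct itself had been dissected away from the peri-infarct tissue. The treatment names are those of the sample titles. The genes checked among those that the publication names for HPBCD against vehicle in peri-infarct tissue, Cx3cr1 among them, were compared by group means. For most of them, Cx3cr1 included, the libraries of the groups overlapped. Each difference of means ran opposite to the named direction in the libraries as labelled. The sign of each difference between treatments is therefore uncertain, no value here settles which treatment each regional comparison belongs to, and values are given for the libraries as labelled.

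Homeostatic microglia survey the parenchyma with motile processes and read nucleotides, chemokines and growth factors through a set of surface receptors. SALL1, a zinc-finger transcription factor, maintains this state, and signaling by transforming growth factor β supports it. After injury or demyelination, microglia are known to lower several of these genes while they raise genes for phagocytosis and lipid handling, and they can also multiply, so that in whole tissue the level of a homeostatic gene depends on both the number of cells and the RNA per cell.

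P2ry12, P2ry13 and Olfml3 lie on the minus strand of chromosome 3. The 250 bases before the annotated start of each are shown, as RefSeq gives them on GRCm38.p6, because P2ry12 had the smallest regional change of the 9 genes, Olfml3 the largest change in the HPBCD libraries, and P2ry13 is the neighbor of P2ry12 on the same strand. Capitals mark AGGAAGT, the core of the letters bound by PU.1, the lineage factor of macrophages encoded by Spi1, searched on both strands.
P2ry12 (chr3:59262986-59263235): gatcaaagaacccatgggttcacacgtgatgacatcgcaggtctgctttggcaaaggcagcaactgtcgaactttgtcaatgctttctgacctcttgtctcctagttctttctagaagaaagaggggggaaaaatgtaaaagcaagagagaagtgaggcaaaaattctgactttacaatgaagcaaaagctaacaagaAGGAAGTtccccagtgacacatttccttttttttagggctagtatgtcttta
P2ry13 (chr3:59210883-59211132): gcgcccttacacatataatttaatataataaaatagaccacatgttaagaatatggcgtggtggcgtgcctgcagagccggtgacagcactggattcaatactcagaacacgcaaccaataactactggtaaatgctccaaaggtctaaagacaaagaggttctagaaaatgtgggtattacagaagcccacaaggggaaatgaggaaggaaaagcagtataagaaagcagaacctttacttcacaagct
Olfml3 (chr3:103738002-103738251): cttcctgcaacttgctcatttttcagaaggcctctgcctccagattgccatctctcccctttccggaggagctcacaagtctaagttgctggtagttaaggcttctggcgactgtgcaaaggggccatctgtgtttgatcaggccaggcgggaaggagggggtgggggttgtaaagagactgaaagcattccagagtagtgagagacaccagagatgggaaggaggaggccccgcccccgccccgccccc
RefSeq held 8 such windows for 6 of the 9 genes. AGGAAGT was in 2 of the 8 windows, those of P2ry12 and of 1 of the Sall1 starts, against 7.69% of 32851 mouse windows of this length. In P2ry12 its first base lay 52 bases before the RefSeq start. That start lies outside the GENCODE M21 span of P2ry12 given below (chr3:59216272-59262871). The longer form GAGGAAGT, which contains AGGAAGT, was in 0 of the 8 windows and in 2.44% of all windows. A match of letters is a description of the window and not a binding site.

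Gene counts per library were 14445021 to 22171627. Expression is given as CPM (gene counts relative to the library total) scaled by TMM factors over the 20 libraries, and a count of 3 corresponds to 0.135 to 0.208 CPM. The lowest count of any of the 9 genes in any library was 152, for Gpr34. One library stood apart in the peri-infarct vehicle group. Replicate 3 had the highest level of the group for all 9 genes, with a summed level of 915 CPM against 421 to 575 CPM in the other 4. It was also the highest of its group for 11 genes shared by microglia and macrophages (2789 CPM, against a lowest of 790) and the lowest for 7 neuronal markers (6202 CPM, against a highest of 8292). Among the peri-infarct HPBCD libraries, replicate 4 was the highest for 8 of the 9 genes (summed level 1005 CPM, against 621 to 782 CPM). For the 11 shared genes it was also the highest of its group (3728 CPM, against a lowest of 1448). It was the lowest for the 7 neuronal markers (3373 CPM, against a highest of 5994) and the highest for monocyte and neutrophil markers (30.02 CPM, against a lowest of 3.87). The calls between treatments, the order of levels per kb, the ratios and the correlations are given with and without these libraries, a choice made after the values were seen.

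To ask how the tissue beside the infarct differed from the opposite hemisphere, the regions were compared within each treatment. All 9 genes were higher in peri-infarct tissue in both treatments (edgeR quasi-likelihood test, Benjamini-Hochberg adjusted p under 0.05). In vehicle mice the increase ran from 1.37-fold for P2ry12 to 2.54-fold for Cx3cr1, with edgeR adjusted p of 0.00115 to 0.0162; 10.5% of 15801 genes tested were called higher. In HPBCD mice it ran from 1.5-fold for P2ry12 to 3.79-fold for Olfml3, with edgeR adjusted p of 8.15e-07 to 0.00129, where 30.3% of 16047 genes tested were called higher. The median log2 fold change of the 9 genes was 0.94 in vehicle and 1.25 in HPBCD, against 0.015 and 0.032 over all genes tested. In bulk tissue, changes in the number of microglia, in RNA per microglial cell and in the mix of other cells cannot be told apart.

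For each of the 9 genes, the lowest peri-infarct library exceeded the highest contralateral library of the same treatment. Among all genes tested, 6.72% were higher without overlap in vehicle and 24.3% in HPBCD. As the regions did not overlap, all 90 log2 ratios of peri-infarct to contralateral level within animals were bound to be above 0. They are no separate support, and ran from 0.24 (Siglech in a vehicle mouse) to 2.31 (Olfml3 in an HPBCD mouse). Vehicle peri-infarct replicate 3 did not decide these calls, since all 9 genes were called in both treatments with each library left out in turn.

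**Figure D1:**
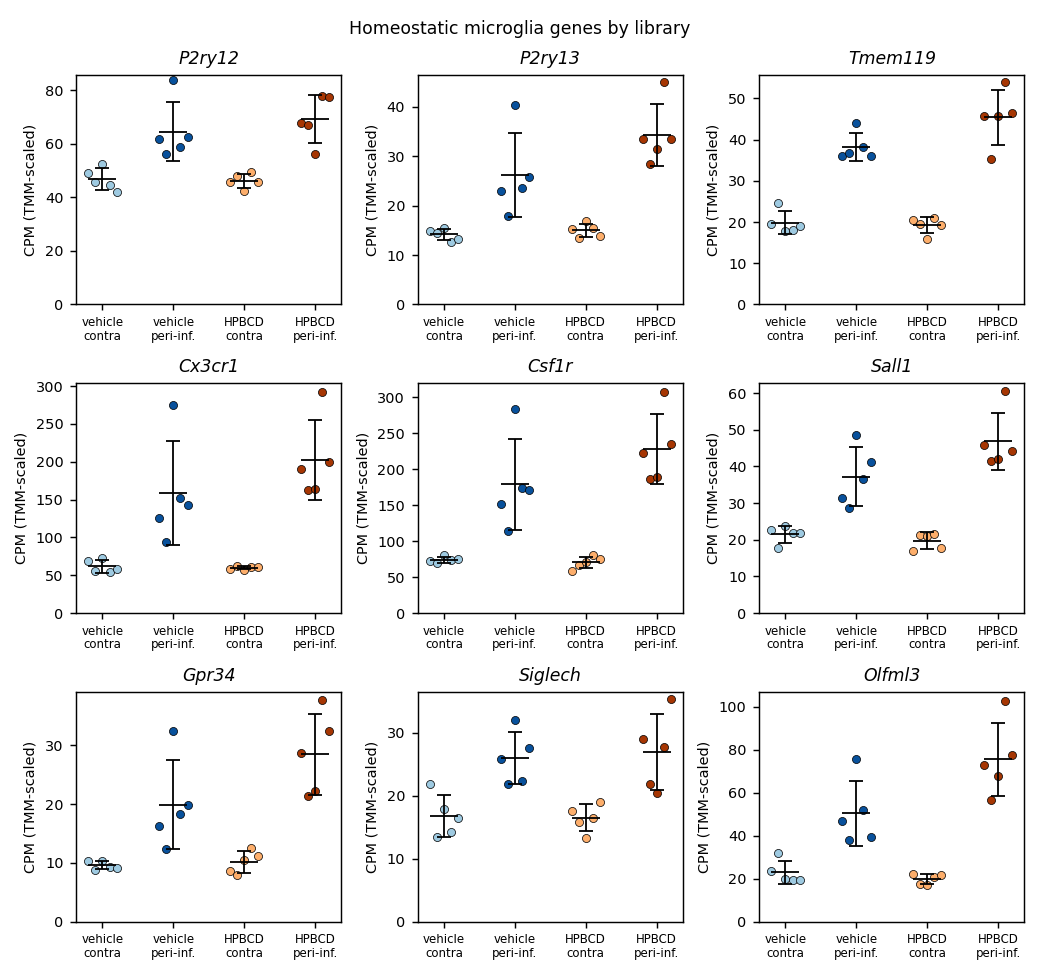
TMM-scaled CPM (vertical axes, from 0) of the 9 homeostatic microglia genes in each library of the 4 groups, with points for libraries in order of replicate number and bars for the mean ± SD (n = 5). Peri-infarct points lie above contralateral points of the same treatment in every panel, and the highest vehicle peri-infarct point in each panel is replicate 3.

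The nucleotide receptors came first by role. P2ry12 (ENSMUSG00000036353, GRCm38 chr3:59216272-59262871, protein coding) encodes the ADP receptor that directs microglial processes to sites of injury. It was measured at 49.0, 45.9, 52.4, 44.5 and 41.9 CPM in contralateral vehicle libraries 1 to 5 and at 61.7, 56.1, 83.8, 58.6 and 62.6 CPM in the peri-infarct libraries of the same mice. In the libraries labelled HPBCD it stood at 45.6, 48.0, 42.4, 49.4 and 45.7 CPM contralaterally and at 67.7, 66.8, 56.2, 77.8 and 77.7 CPM beside the infarct. The regions did not overlap in either treatment, and replicate 3 stood above the other 4 vehicle peri-infarct libraries. The log2 fold change was 0.46 ± 0.11 (SE) in vehicle (1.37-fold, 95% interval 1.16 to 1.62; edgeR adjusted p = 0.0162), the smallest of the 9, and fell to 0.36 at its lowest when single libraries were left out. In HPBCD it was 0.58 ± 0.10 (1.5-fold, 1.30 to 1.73; edgeR adjusted p = 0.000208).

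P2ry13 (ENSMUSG00000036362, GRCm38 chr3:59207892-59210882) encodes a related ADP receptor. Vehicle libraries 1 to 5 had 14.8, 14.5, 15.5, 12.7 and 13.3 CPM contralaterally and 23.0, 17.9, 40.3, 23.5 and 25.9 CPM beside the infarct. HPBCD libraries had 15.3, 13.4, 16.9, 15.4 and 13.9 CPM contralaterally and 33.5, 28.3, 31.4, 44.9 and 33.5 CPM beside the infarct. The contralateral libraries spanned a narrow range, whereas vehicle peri-infarct replicates 2 and 3 marked a wide one. The increase was 1.83-fold in vehicle (1.39 to 2.42; log2 0.87 ± 0.18; edgeR adjusted p = 0.00861) and 2.29-fold in HPBCD (1.91 to 2.75; log2 1.20 ± 0.12; edgeR adjusted p = 5.51e-06). P2ry13 and P2ry12 both lie inside Med12l, a gene of the transcriptional mediator that is read from the opposite strand, and the exons of P2ry12 overlap those of Med12l over 9 bp. Med12l did not pass the test in either region comparison, with log2 fold changes of 0.31 (edgeR adjusted p = 0.1) and -0.07 (edgeR adjusted p = 0.774). P2ry14, a UDP-sugar receptor of the same cluster, had -0.18 in vehicle (edgeR adjusted p = 0.713) and rose by 0.83 on the log2 scale in HPBCD (edgeR adjusted p = 0.011).

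Gpr34 (ENSMUSG00000040229, GRCm38 chrX:13632089-13640858) encodes a receptor for lysophosphatidylserine, a lipid released by stressed cells. Its levels in vehicle libraries 1 to 5 were 10.3, 8.83, 10.3, 9.35 and 9.10 CPM contralaterally and 16.3, 12.3, 32.4, 18.3 and 19.9 CPM beside the infarct. In HPBCD libraries they were 8.63, 7.92, 10.5, 12.5 and 11.2 CPM contralaterally and 28.7, 21.3, 22.1, 37.6 and 32.4 CPM beside the infarct. The regions were separate, and closest in vehicle, where the lowest peri-infarct library had 12.3 CPM and the highest contralateral one 10.3 CPM. Gpr34 increased 2.06-fold in vehicle (1.49 to 2.84; log2 1.04 ± 0.21; edgeR adjusted p = 0.00795) and 2.81-fold in HPBCD (2.17 to 3.65; log2 1.49 ± 0.17; edgeR adjusted p = 1.47e-05).

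The chemokine receptor gene Cx3cr1 (ENSMUSG00000052336, GRCm38 chr9:119901616-120069879) encodes the receptor through which microglia sense fractalkine from neurons. Its levels were 68.1, 55.7, 72.9, 54.0 and 57.9 CPM in contralateral and 126, 94.4, 275, 153 and 143 CPM in peri-infarct vehicle libraries. The corresponding HPBCD libraries had 58.1, 62.0, 56.9, 60.9 and 61.3 CPM and 191, 163, 163, 292 and 200 CPM. Contralateral HPBCD libraries were the tightest set of the 9 genes (coefficient of variation 3.7%), while vehicle peri-infarct libraries were the widest (43.5%). The increase was 2.54-fold in vehicle (1.77 to 3.65; log2 1.35 ± 0.24; edgeR adjusted p = 0.00424) and 3.37-fold in HPBCD (2.71 to 4.19; log2 1.75 ± 0.15; edgeR adjusted p = 1.37e-06). Without the library that had 275 CPM, the log2 fold change in vehicle was 1.07, the lowest of the leave-one-out values.

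Tmem119 (ENSMUSG00000054675, GRCm38 chr5:113793729-113800516) encodes a surface protein used to tell resident microglia from other macrophages. Vehicle libraries had 19.6, 24.5, 17.8, 18.1 and 19.1 CPM contralaterally and 36.1, 36.8, 44.0, 38.3 and 36.0 CPM beside the infarct. Libraries labelled HPBCD had 20.4, 19.6, 15.9, 21.1 and 19.4 CPM contralaterally and 45.8, 35.3, 45.7, 53.9 and 46.4 CPM beside the infarct. Unlike the other genes, Tmem119 spread little among vehicle peri-infarct libraries (coefficient of variation 8.72%, against 16% to 43.5% for the other 8), and replicate 3 was only moderately above the rest. It rose 1.91-fold in vehicle (1.64 to 2.23; log2 0.94 ± 0.10) and 2.35-fold in HPBCD (2.0 to 2.77; log2 1.23 ± 0.11), with edgeR adjusted p of 0.00115 and 2.01e-06.

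Siglech (ENSMUSG00000051504, GRCm38 chr7:55768178-55778925) encodes a sialic acid-binding lectin of microglia and plasmacytoid dendritic cells. In vehicle libraries it was at 21.9, 13.4, 17.8, 14.3 and 16.4 CPM contralaterally and at 25.8, 21.9, 32.1, 22.4 and 27.6 CPM beside the infarct. In HPBCD libraries it was at 17.6, 15.9, 13.3, 16.5 and 19.1 CPM contralaterally and at 29.0, 21.9, 20.4, 27.8 and 35.5 CPM beside the infarct. The vehicle regions were barely apart, at 21.94 CPM for the lowest peri-infarct and 21.88 CPM for the highest contralateral library. Siglech increased 1.54-fold in vehicle (1.23 to 1.92; log2 0.62 ± 0.15; edgeR adjusted p = 0.0142) and 1.63-fold in HPBCD (1.31 to 2.03; log2 0.71 ± 0.15; edgeR adjusted p = 0.00129). Of 4 markers of plasmacytoid dendritic cells, Klk1 had 3 counts or fewer in every library, and the summed level of the 4 was 5.94 to 7.40 CPM in vehicle peri-infarct and 3.24 to 10.3 CPM in HPBCD peri-infarct libraries, against 7.17 to 14.9 and 10.7 to 16.6 CPM contralaterally. Nearly all of this sum was Cox6a2 (10.9 and 12.3 CPM contralaterally). Only Cox6a2 in vehicle, and Cox6a2 and Ly6d in HPBCD, passed the filter on low counts, and each was called lower beside the infarct. The sum therefore describes mainly 1 gene and is no measure of the number of these cells. Their part in the Siglech values was not tested. Ccr9, which was not tested, was at 0.756 CPM (0.456 to 1.36) beside the infarct and 0.124 CPM (0 to 0.276) contralaterally in HPBCD, without overlap, and at 0.203 and 0.201 CPM in vehicle.

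Olfml3 (ENSMUSG00000027848, GRCm38 chr3:103722222-103738001) encodes a secreted olfactomedin-domain protein. Vehicle libraries had 23.8, 32.0, 19.7, 19.5 and 19.5 CPM contralaterally and 46.9, 38.1, 75.8, 51.7 and 39.4 CPM beside the infarct. HPBCD libraries had 22.3, 17.6, 16.96, 20.8 and 21.6 CPM contralaterally and 72.7, 56.7, 67.8, 103 and 77.4 CPM beside the infarct. Vehicle replicate 2 was both the highest contralateral and the lowest peri-infarct library, so that its log2 ratio within the animal was 0.25, against a median of 1.01 in the vehicle mice. Olfml3 rose 2.19-fold in vehicle (1.60 to 2.98; log2 1.13 ± 0.21; edgeR adjusted p = 0.0047) and 3.79-fold in HPBCD (3.06 to 4.70; log2 1.92 ± 0.14; edgeR adjusted p = 8.15e-07).

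Sall1 (ENSMUSG00000031665, GRCm38 chr8:89027235-89044162), the only transcription factor among the 9, was at 22.5, 17.6, 23.8, 21.8 and 21.7 CPM in contralateral and 31.3, 28.6, 48.5, 36.6 and 41.2 CPM in peri-infarct vehicle libraries. The HPBCD values were 16.9, 21.4, 21.1, 21.7 and 17.6 CPM contralaterally and 45.9, 41.5, 42.0, 60.5 and 44.3 CPM beside the infarct. All peri-infarct libraries were above all contralateral ones, and HPBCD replicate 4 stood above the other 4 of its group. The increase was 1.72-fold in vehicle (1.39 to 2.12; log2 0.78 ± 0.14; edgeR adjusted p = 0.00442) and 2.37-fold in HPBCD (1.98 to 2.85; log2 1.25 ± 0.12; edgeR adjusted p = 3.75e-06).

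Csf1r (ENSMUSG00000024621, GRCm38 chr18:61100598-61132149) encodes the receptor of CSF1 and IL-34 on which microglial survival depends. It was at 72.1, 69.9, 80.9, 73.9 and 74.7 CPM in contralateral and 152, 115, 284, 173 and 171 CPM in peri-infarct vehicle libraries. In HPBCD libraries it was at 58.7, 67.1, 70.9, 80.5 and 74.6 CPM contralaterally and at 223, 186, 190, 308 and 235 CPM beside the infarct. The contralateral libraries were close together, and the highest peri-infarct libraries were replicate 3 in vehicle and replicate 4 in HPBCD. Csf1r increased 2.39-fold in vehicle (1.79 to 3.20; log2 1.26 ± 0.19; edgeR adjusted p = 0.00257) and 3.24-fold in HPBCD (2.63 to 4.0; log2 1.70 ± 0.14; edgeR adjusted p = 1.37e-06). Its exons overlap those of Hmgxb3 on the opposite strand over 873 bp, and as the strand setting of the counting was not given in the sources used here, a part of its counts is uncertain. The overlaps of P2ry12 and of Cx3cr1 (78 bp, with Gm33858) are short, and the exons of the other 6 genes overlap no other gene.

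**Figure D2:**
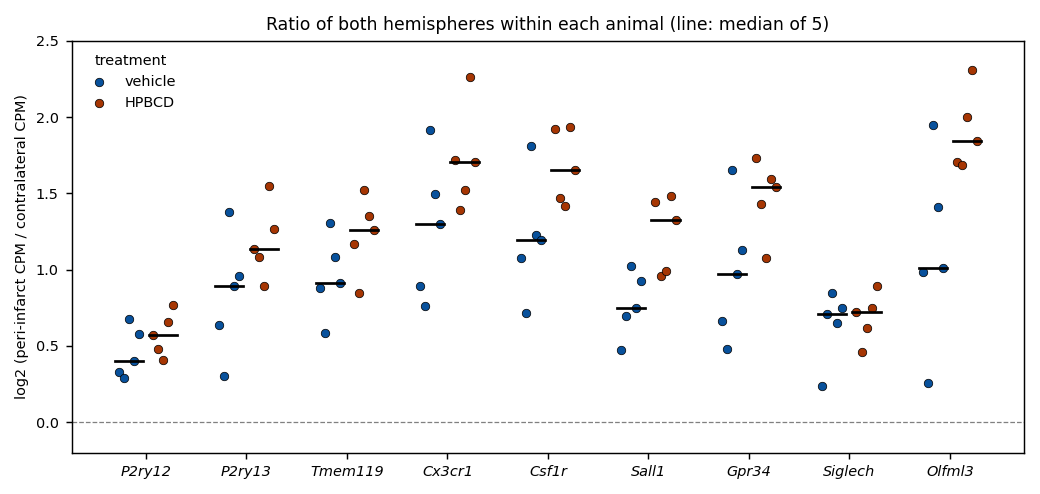
Log2 ratio of peri-infarct to contralateral CPM within each animal (vertical axis) for each of the 9 genes, vehicle in blue and HPBCD in brown, with a line at the median of 5 animals. All 90 ratios lie above 0, as they must where the regions do not overlap. P2ry12 and Siglech have the lowest medians in both treatments.

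Compared per kb of transcript, which makes levels comparable between genes, the order of the 9 genes differed between the hemispheres. In contralateral tissue P2ry12 was first, at 19.9 (17.9 to 22.3) CPM per kb in vehicle and 19.7 (18.1 to 21.1) in HPBCD, and did not overlap with Csf1r, the second, at 15.8 (14.9 to 17.2) and 15.0 (12.5 to 17.1). Cx3cr1 followed, at 13.7 and 13.3 CPM per kb, and overlapped with Csf1r. Beside the infarct Csf1r was first, at 38.1 (24.4 to 60.4) CPM per kb in vehicle and 48.5 (39.5 to 65.4) in HPBCD, and Cx3cr1 second, at 35.2 (21.02 to 61.1) and 44.9 (36.2 to 65.0). P2ry12 came after both, at 27.5 (24.0 to 35.7) and 29.5 (24.0 to 33.2) CPM per kb. Its range overlapped with that of Cx3cr1 in vehicle, so these neighbors were not separated there, and did not overlap in HPBCD. Tmem119 came next in all 4 groups, at 17.05 and 20.2 CPM per kb beside the infarct and at 8.84 and 8.60 contralaterally. The lowest level per kb was that of Sall1 in 3 groups (4.08, 7.07 and 8.89 CPM per kb) and of Olfml3 in contralateral HPBCD libraries (3.63), where it overlapped with Sall1 (3.75). Among the 5 genes below Tmem119 all neighbors overlapped beside the infarct, whereas in contralateral vehicle libraries Siglech, P2ry13 and Gpr34 (7.84, 5.597 and 4.58 CPM per kb) did not overlap in that order. Without vehicle replicate 3 and HPBCD replicate 4, the first 4 genes and the lowest beside the infarct were the same, and P2ry12 and Cx3cr1 again overlapped in vehicle and not in HPBCD. Among neighbors, Siglech and P2ry13 then no longer overlapped in vehicle. In HPBCD this held for P2ry12 and Tmem119, for Tmem119 and Olfml3, and for Siglech and Sall1.

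The other genes of the microglial program were read beside the 9. Of 14 other homeostatic genes, 9 were higher and 0 lower beside the infarct in each treatment, with a median log2 fold change of 1.05 in vehicle and 1.68 in HPBCD. The share of all genes called higher differed between the treatments, at 10.5% in vehicle and 30.3% in HPBCD. P2ry6, a UDP receptor linked to phagocytosis, rose by 1.70 in vehicle and 2.35 in HPBCD (log2; edgeR adjusted p = 0.00579 and 5.96e-06). The other 5 (Crybb1, Mertk, Slc2a5, Upk1b and Ltc4s) did not pass the test in either treatment. Mertk, a phagocytic receptor kinase, had log2 fold changes of 0.10 and 0.02 (edgeR adjusted p = 0.638 and 0.91), and Crybb1, a crystallin of mature microglia, had 0.18 and -0.03 (edgeR adjusted p = 0.459 and 0.913).

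Genes shared by microglia and macrophages were all higher beside the infarct (11 of 11 in both treatments, against 10.5% and 30.3% of all genes). Their median log2 fold changes were 1.82 and 2.67, beside 0.94 and 1.25 for the 9 homeostatic genes. The difference between the lists was not tested. Ptprc, the leukocyte antigen CD45, had the largest change of the shared genes, 2.17 and 3.05 (edgeR adjusted p = 0.00331 and 1.29e-06), and Aif1, which encodes IBA1, the smallest in vehicle, 1.21 (edgeR adjusted p = 0.00724). The complement gene C1qa rose by 2.03 and 2.86 (edgeR adjusted p = 0.00244 and 9.86e-07), and Itgam, an integrin subunit of myeloid cells, by 1.5 and 2.0 (edgeR adjusted p = 0.00257 and 1.4e-06). Of 14 genes of lipid-laden and disease-associated microglia, 13 were higher in vehicle and 14 in HPBCD, with medians of 2.07 and 3.0. Lgals3, a galectin of phagocytes, rose by 5.24 and 5.46 (log2; edgeR adjusted p = 0.00146 and 2.9e-05), and Itgax, an integrin subunit, by 4.95 and 5.81 (edgeR adjusted p = 0.00297 and 1.9e-07). Axl, a receptor kinase, had the smallest change of this list in vehicle, 0.81 (edgeR adjusted p = 0.0157), and in HPBCD, 1.27 (edgeR adjusted p = 5.68e-06). In vehicle Lpl, a lipoprotein lipase, had 1.13 (edgeR adjusted p = 0.0661).

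**Figure D3:**
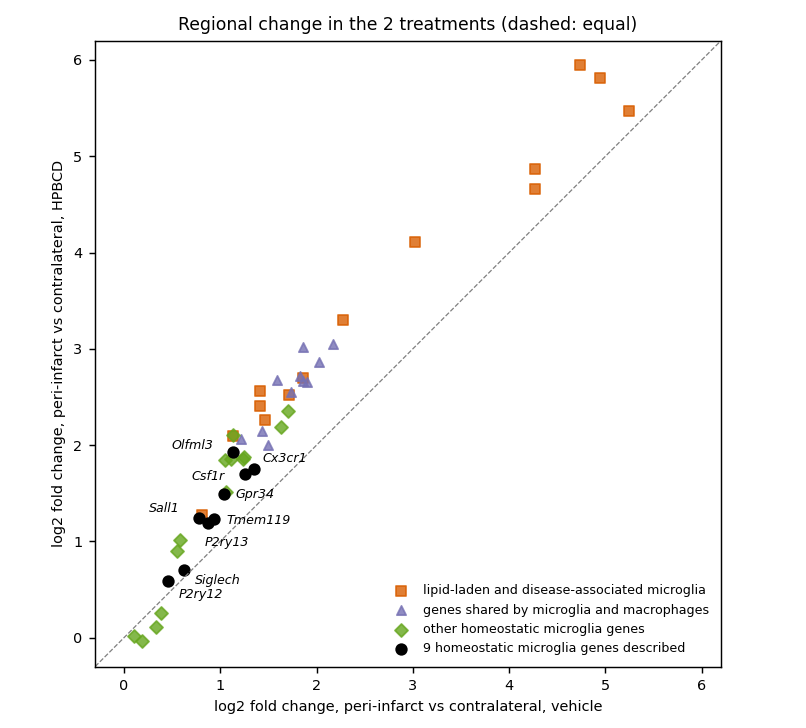
Regional log2 fold change, peri-infarct over contralateral, in vehicle (horizontal axis) and HPBCD (vertical axis) for the 9 homeostatic microglia genes (black, named) and for genes of 3 other lists, with a dashed line at equality. The 9 genes lie between 0.46 and 1.35 on the horizontal axis, and genes of lipid-laden microglia extend to 5.24.

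To set the homeostatic genes against the rest of the myeloid RNA, each gene was divided by the summed level of the 11 shared genes in the same library, and is given per 1000. All 9 ratios were lower beside the infarct in both treatments. P2ry12 went from 112 ± 16.1 to 47.8 ± 16.1 per 1000 in vehicle and from 118 ± 16 to 30.1 ± 9.66 in HPBCD (SD, n = 5), which is 0.427 and 0.255 of the contralateral ratio. Siglech went to 0.489 and 0.274 of the contralateral ratio, and Sall1 to 0.523 and 0.396. Cx3cr1 kept the largest share in vehicle, at 0.721 (147 ± 18.3 to 106 ± 11.1 per 1000), and Olfml3 in HPBCD, at 0.624 (50.5 ± 5.03 to 31.5 ± 4.80). In vehicle the regions did not overlap for 6 of the 9 ratios, and overlapped for Tmem119, Csf1r and Olfml3; in HPBCD they overlapped for none of the 9. The same ratios overlapped without vehicle replicate 3 and HPBCD replicate 4, where P2ry12 was at 0.468 and 0.274 of the contralateral ratio. The same division lowered most genes of the transcriptome, since the shared genes rose: 81.6% of all genes tested in vehicle and 87.9% in HPBCD were lower without overlap, so the counts of 6 and 9 do not set the homeostatic genes apart, and the ratios describe only how they stood relative to shared myeloid transcripts.

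The ligands, processing enzymes and signaling partners of the listed receptors were read next. Of 13 such genes, 8 were higher and 2 lower beside the infarct in vehicle, and 9 were higher and 3 lower in HPBCD. Over all genes tested, 10.5% were called higher and 9.7% lower in vehicle, and 30.3% and 24.3% in HPBCD. The small numbers lower do not set this list apart. Csf1, a ligand of CSF1R, rose by 1.15 in vehicle and 1.97 in HPBCD (log2; edgeR adjusted p = 0.00689 and 7.17e-07), whereas Il34, the second ligand, had 0.05 and -0.29 (edgeR adjusted p = 0.654 and 0.0719). Cx3cl1, which encodes fractalkine, was lower, at -0.28 and -0.63 (edgeR adjusted p = 0.0289 and 0.000831). Adam10 and Adam17, the proteases that release fractalkine from the membrane, rose by 0.31 and 0.79 in vehicle (edgeR adjusted p = 0.0158 and 0.0103).

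Transforming growth factor β, which supports the homeostatic state, was also represented. Tgfb1 rose by 1.40 and 2.2 (edgeR adjusted p = 0.00365 and 3.68e-06), and its receptor genes Tgfbr1 and Tgfbr2 by 1.16 and 1.08 in vehicle (edgeR adjusted p = 0.00365 and 0.0113). Entpd1, the ectonucleotidase that breaks down ATP and ADP, rose by 0.72 and 1.24 (edgeR adjusted p = 0.0118 and 4.26e-05). Abhd16a, an enzyme that makes lysophosphatidylserine, the ligand of GPR34, was lower, at -0.35 and -0.41 (edgeR adjusted p = 0.00757 and 0.00249). Tyrobp, the adaptor through which SIGLECH signals, rose by 1.73 and 2.72 (edgeR adjusted p = 0.00462 and 1.4e-06).

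Of 9 transcription factors of microglia, 5 were higher in vehicle, and 6 were higher and 1 lower in HPBCD. The shares of all genes called higher were 10.5% in vehicle and 30.3% in HPBCD, and 24.3% were lower in HPBCD. The 1 lower gene thus does not set the list apart. Runx1 had the largest change, 1.94 and 2.89 (edgeR adjusted p = 0.00406 and 3.03e-06). Irf8 rose by 1.81 and 2.42 (edgeR adjusted p = 0.00322 and 8.15e-07) and Spi1, which encodes PU.1, by 1.31 and 2.35 (edgeR adjusted p = 0.0131 and 1.74e-06). Sall3, a paralog of Sall1, rose by 0.80 and 0.90 (edgeR adjusted p = 0.00822 and 0.000196). Mef2c, a factor of neurons as well as microglia, had -0.18 in vehicle (edgeR adjusted p = 0.523) and fell by 1.23 in HPBCD (edgeR adjusted p = 0.000451). Of 6 other nucleotide receptors tested, 2 (P2ry6 and P2rx7) were higher in vehicle and 6 in HPBCD, and P2rx7, an ATP-gated channel, rose by 0.90 and 1.48 (edgeR adjusted p = 0.00469 and 4.32e-06).

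Markers of other cell types were read in the regional comparisons, where 10.5% of all genes in vehicle and 30.3% in HPBCD were called higher, and 9.7% and 24.3% lower. Of 7 neuronal markers, 3 were lower beside the infarct in vehicle and 7 in HPBCD; their summed level was 6202 to 8292 CPM beside the infarct and 10270 to 11960 CPM contralaterally in vehicle, and 3373 to 5994 and 11870 to 13520 CPM in HPBCD. Of border macrophage markers, 1 of 6 tested (Ms4a7) was higher in vehicle and 7 of 8 in HPBCD, with sums of 6.56 to 16.7 against 3.64 to 17.4 CPM in vehicle and 20.9 to 46.4 against 4.39 to 14.6 CPM in HPBCD. Of 6 fibroblast and meningeal markers, 1 was higher in vehicle and 6 in HPBCD, with sums of 106 to 372 against 56.2 to 351 CPM and 543 to 1284 against 69.4 to 286 CPM. The border macrophage and fibroblast sums overlapped between the regions in vehicle and were separate in HPBCD. For both sums, the highest contralateral vehicle library was replicate 2. Oligodendrocyte markers were called higher in 0 of 6 cases in vehicle and 6 of 6 in HPBCD, and astrocyte markers in 3 of 7 and 4 of 7. Of 5 endothelial markers, 0 were called in vehicle, and 1 was higher and 1 lower in HPBCD. Monocyte and neutrophil markers summed to at most 5.75 CPM in vehicle peri-infarct libraries (also at most 5.75 contralaterally) and to 3.87 to 30.02 CPM in HPBCD peri-infarct libraries (at most 2.47 contralaterally). The part of these cell types in the changes of the 9 genes was not tested.

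To ask whether treatment altered these genes, peri-infarct libraries labelled HPBCD were compared with those labelled vehicle; the sign is uncertain, as stated for the labels. The log2 fold change was above 0 for all 9 genes (0.05 to 0.58, median 0.34), but none passed the test: 0 of 9 were called by edgeR, where 21.4% of 16224 genes were called in either direction. At an unadjusted p under 0.05 there were 2 (Tmem119 and Olfml3), against 39.2% of all genes tested. The libraries overlapped for every one of the 9 genes, while 7.46% of all genes were higher and 5.98% lower without overlap in the libraries labelled HPBCD. Olfml3 came nearest, at 1.49-fold (95% interval 1.10 to 2.01; log2 0.58 ± 0.20; edgeR adjusted p = 0.0582), followed by Tmem119 at 1.18-fold (1.01 to 1.38; edgeR adjusted p = 0.109). P2ry12 was at 1.07-fold (0.884 to 1.29; edgeR adjusted p = 0.597) and Siglech at 1.03-fold (0.813 to 1.31; edgeR adjusted p = 0.853). For the wider spread genes the intervals were broad, as for Cx3cr1 at 1.27-fold (0.856 to 1.88; edgeR adjusted p = 0.345), Csf1r at 1.27-fold (0.91 to 1.77; edgeR adjusted p = 0.264) and Gpr34 at 1.43-fold (0.991 to 2.05; edgeR adjusted p = 0.136).

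The number called changed with the libraries and the tool, and so did the share of all genes called. Without vehicle peri-infarct replicate 3, the library highest for all 9 genes, 7 of the 9 (all but P2ry12 and Siglech) were called higher in the libraries labelled HPBCD, where 28.5% of all genes were called in either direction; the log2 fold change of Cx3cr1 went from 0.34 to 0.64 (edgeR adjusted p = 0.0316) and that of Olfml3 from 0.58 to 0.77 (edgeR adjusted p = 0.0135). Without HPBCD peri-infarct replicate 2, the lowest of its group for 7 of the 9 genes, 2 were called (Tmem119 and Olfml3), and 32.5% of all genes. Without HPBCD peri-infarct replicate 4, 0 of the 9 and 10.5% of all genes were called, and the log2 fold change was 0.18 for Cx3cr1 and 0.216 for Csf1r (edgeR adjusted p = 0.663 and 0.526). With the highest library of each group left out, a choice made after the values were seen, 5 were called (P2ry13, Cx3cr1, Csf1r, Gpr34 and Olfml3), and 20.8% of all genes. DESeq2 called 1 (Olfml3, adjusted p = 0.0291) and 29.8% of all genes. Limma voom with quality weights called 37.1% of all genes and 5 of the 9 (P2ry13, Tmem119, Sall1, Gpr34 and Olfml3, with adjusted p from 0.00933 for Olfml3 to 0.046 for Sall1).

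**Figure D4:**
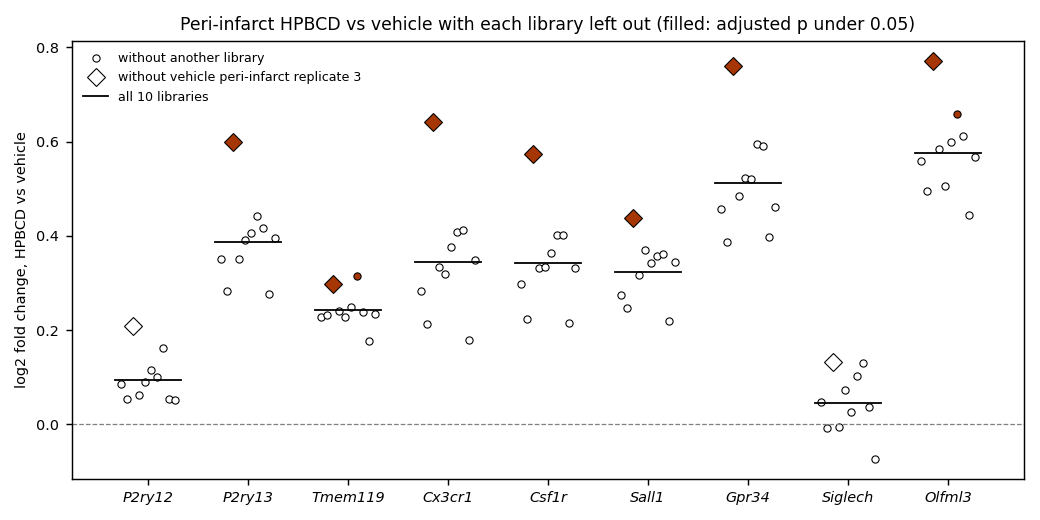
Log2 fold change of peri-infarct libraries labelled HPBCD against vehicle (vertical axis) for each of the 9 genes, with all 10 libraries (line) and with each library left out (points; diamond for vehicle peri-infarct replicate 3), filled where the edgeR adjusted p was under 0.05. Without replicate 3, 7 genes are filled, and those of P2ry12 and Siglech are not.

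Markers of other cells were read in the same comparison. All 6 fibroblast and meningeal markers and 5 of 8 border macrophage markers were called higher, and 6 of 7 neuronal markers lower, in the libraries labelled HPBCD, where 12.4% of all genes were called higher and 9% lower. Also called higher were 2 of 3 tested markers of monocytes and neutrophils (median log2 fold change 2.52), 2 of 7 of astrocytes, 1 of 6 of oligodendrocytes (median 0.60) and 1 of 5 of endothelium, counts of a few genes each to be read against that share. Among the partners of the listed receptors, Il34 and Cx3cl1, both made chiefly by neurons, were lower (log2 fold changes -0.49 and -0.47; edgeR adjusted p = 0.0263 and 0.0262), and Tgfbr2 was higher (0.91; edgeR adjusted p = 0.0322). The part of the mix of cells in the values of the 9 genes was not tested.

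In contralateral tissue, 0 of the 9 genes were called between treatments by edgeR, where 0% of 15469 genes were called, and 0 had an unadjusted p under 0.05, against 7.91% of all genes. DESeq2 and limma voom also called 0 of the 9, and 0.362% and 0% of all genes. Log2 fold changes ran from -0.21 (Olfml3, 0.863-fold, 95% interval 0.693 to 1.07) to 0.07 (P2ry13, 1.05-fold, 0.907 to 1.22), with edgeR adjusted p of 0.745 to 0.971. Over the 9 genes, the 95% intervals reached up to 1.28-fold (Gpr34) and down to 0.693-fold (Olfml3).

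Whether the regional difference itself depended on treatment was tested with an interaction term over all 20 libraries. The term was above 0 for all 9 genes, from 0.08 (Siglech) to 0.79 (Olfml3) on the log2 scale, but 0 of 9 were called by edgeR, where 9.41% of 16758 genes were called. At an unadjusted p under 0.05 there were 2 (Sall1 and Olfml3), against 28.9% of all genes. DESeq2 and limma voom each called 1 (Olfml3), and 15% and 24.5% of all genes. For Olfml3 the regional change was 1.73 times as large in HPBCD as in vehicle (95% interval 1.18 to 2.52; edgeR adjusted p = 0.0603), and for P2ry12 it was 1.09 times as large (0.876 to 1.34; edgeR adjusted p = 0.632). Without vehicle peri-infarct replicate 3, 5 genes were called (P2ry13, Cx3cr1, Csf1r, Sall1 and Olfml3), and 16.8% of all genes. Without HPBCD peri-infarct replicate 4, 0 of the 9 and 4.63% of all genes were called.

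**Figure D5:**
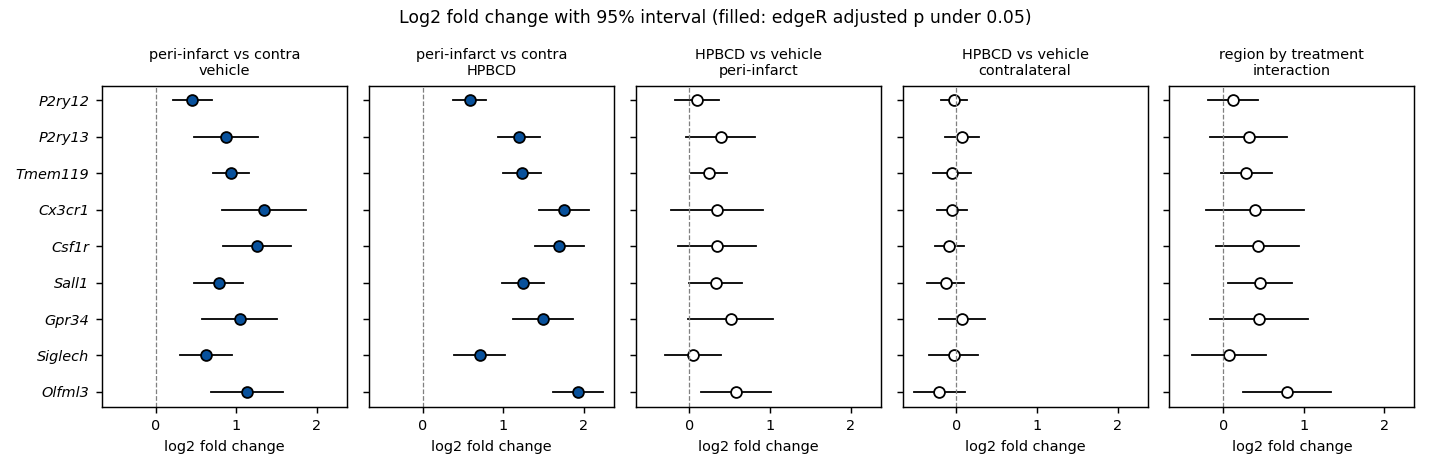
Log2 fold change (horizontal axes) of the 9 genes in the 5 comparisons, with 95% intervals and filled points where the edgeR adjusted p was under 0.05. All points are filled for the regional comparisons within vehicle and within HPBCD, and none for HPBCD against vehicle or for the interaction.

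Across the 20 libraries the 9 genes moved closely together, which in part reflects the regional difference they share. Pearson's r of log2 CPM over the 36 pairs was 0.819 to 0.991 (median 0.938). After each group mean was removed, it was 0.187 to 0.953 (median 0.68). Without vehicle peri-infarct replicate 3 and HPBCD peri-infarct replicate 4, the latter range was -0.381 to 0.903 (median 0.375), so the closeness within groups rested largely on these libraries. The single pairs that follow are from all 20 libraries. Gpr34 with Csf1r (0.953), Cx3cr1 with Csf1r (0.936) and P2ry13 with Cx3cr1 (0.919) were then closest. Tmem119 stood apart: its r was 0.853 with Olfml3 and 0.187 to 0.461 with the other 7. Siglech was also loose, from 0.276 with Tmem119 to 0.711 with P2ry12. The libraries of a group share region and treatment, and those of both hemispheres of an animal share the animal, so these values are descriptions without a test.

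By the mean standardized level of the 9 genes over 20 libraries, among the most alike of 11766 genes with a mean of at least 5 CPM were Vsir (r = 0.992), an inhibitory receptor of myeloid cells, Ly86 (0.99), Itgam, Ptpn6 and C1qc (0.989 each), C1qa and Ctss (0.988 each), and Irf8 and Unc93b1 (0.987 each). With group means removed, they included Vsir (0.963), Ly86 (0.931), Bin2 (0.93), Lag3 and Ptpn6 (0.928 each), Slco2b1 (0.926), C1qc (0.925), Cd180 (0.922), and Unc93b1 (0.921). Vsir, Ly86, Ptpn6, C1qc and Unc93b1 were in both sets. Both sets were drawn from all 20 libraries.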

How the data were processed

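Polyadenylated RNA of 20 libraries was sequenced by the authors as read pairs from stranded libraries (bcl2fastq 2.19), trimmed with Trimmomatic 0.32, aligned to GRCm38 with STAR 2.5.2b and counted per Ensembl gene with HTSeq. The deposited values are raw counts; the annotation release and strand option were not given in the sources used here. Symbols and coordinates came from GENCODE M21 (GRCm38), which held 97.97% of the 46078 genes. The 5 closing lines of each table, which hold unassigned reads, did not enter library sizes. The share of read pairs without a feature was 4.39% to 9.5%, ambiguous 3.94% to 8.03% and not uniquely aligned 16.58% to 24.3%. The 9.5% and 8.03% were those of HPBCD contralateral replicate 4, which also had the fewest gene counts (14445021). Groups came from the sample titles. Gene counts were 14445021 to 22171627 per library, and floors cover counting error only.

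Differences were tested over all genes with edgeR 4.0.16 (R 4.3.3; quasi-likelihood F test, TMM factors, filterByExpr) with Benjamini-Hochberg adjustment at 0.05. Comparisons of 2 groups used their 10 libraries and the interaction all 20. The SE is the size of the log2 fold change divided by the square root of F, and 95% intervals use the test's total degrees of freedom. Levels per kb use the longest principal transcript. The alternatives were DESeq2 1.42.0, limma 3.58.1 voom with quality weights, other scaling, filters and samples, and a replicate block; the tests were tested on simulated data first. Within a treatment, both libraries of a number carry 1 identifier in their names, read here as the animal, so the regions are paired. The regional values printed here come from tests without the pairing, which entered only in the replicate block. Deviations from group means correlated between both libraries of an animal with r of -0.11 to 0.301. The members and lists were chosen with earlier results of these data known. Named genes were the 9 members, genes of each list (by rule 2 to 4, those with the largest or smallest change or a role tied to a listed receptor) and genes among the 10 most alike; more were named among the partners of the receptors and the other homeostatic genes, and marker lists are given mostly by counts; some results are not reported here.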

Additional observations from a re-analysis of the deposited data

Results flagged for a closer look

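In each of the 36 sets of 5 libraries (9 genes in 4 groups), the highest and the lowest library were compared with the nearest of the others by Dixon's ratio of gap to range, and 4 sets had a library beyond the 95% critical value of 0.71. Chance flags about 1 in 20 groups, and the 9 genes are not independent of each other. In vehicle peri-infarct tissue, P2ry12 stood at 83.8 CPM in replicate 3 (gap over range 0.767), the library that was highest for all 9 genes. In HPBCD peri-infarct tissue, replicate 4 was set apart for Sall1, at 60.5 CPM (0.77), and for Cx3cr1, at 292 CPM (0.711). In vehicle contralateral tissue, Tmem119 was at 24.5 CPM in replicate 2 (0.726), which was also the highest of that group for Olfml3 and for the summed fibroblast markers (351 CPM, against a lowest of 56.2). The part of these markers in the Tmem119 value was not tested. The regional calls of all 9 genes held without each of these libraries.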

How the results depend on the processing

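All 9 genes were called higher beside the infarct in vehicle and in HPBCD under each alternative (DESeq2, limma voom, RLE and upper quartile factors, no filter, at least 10 counts in every library, thinned counts, all 4 groups in 1 fit) and with each library left out, with adjusted p up to 0.0391; 9.98% to 32.1% of all genes were called in either direction in vehicle and 33.1% to 58.8% in HPBCD. With the animal as a replicate block, 9 and 9 genes were called in these comparisons and 0 in the interaction (19.3%, 55.2% and 10.9% of all genes); the block changed no call. Between treatments in peri-infarct tissue, 0 genes were called in the main edgeR test, 1 by DESeq2 (29.8% of all genes), 5 by limma voom (37.1%), 1 with thinned counts (21.5%), 1 with all 4 groups in 1 fit (29.7%), 5 with the highest library of each group left out (20.8%; chosen after seeing the data), and 0 to 7 with single libraries left out (5.03% to 32.5%); the 7 came without vehicle replicate 3 (28.5%) and 2 without HPBCD replicate 2 (32.5%). For the interaction the numbers were 0 in the main test, 1 by DESeq2 (15%), 1 by limma voom (24.5%), 2 with both highest libraries left out (11.4%), and 0 to 5 with single libraries left out (3.12% to 18.4%), where 5 came without vehicle peri-infarct replicate 3 (16.8%) and 1 each without vehicle contralateral replicate 4 (12%) and HPBCD peri-infarct replicate 2 (18.4%). In contralateral tissue 0 were called between treatments under every alternative.

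Signs changed only with single libraries left out and near 0: Siglech from -0.073 to 0.132 (log2) between treatments beside the infarct and from -0.04 to 0.172 in the interaction, and, between treatments in contralateral tissue, P2ry12 from -0.063 to 0.019, Tmem119 from -0.085 to 0.04, Cx3cr1 from -0.1 to 0.013, Gpr34 from -0.012 to 0.147 and Siglech from -0.103 to 0.083. The cause was not tested. Depth was not a limit for detection, since the lowest count of the 9 genes was 152.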
